A study of Saccharomyces cerevisiae with 15 samples.

Results

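The 10 genes described here encode the main Hsp70 chaperones of budding yeast and their Hsp110 relatives: SSA1, SSA2, SSA3, SSA4, SSB1, SSB2, SSC1, KAR2, SSE1 and SSE2. They were chosen by gene symbol among the gene probes of 2 two-colour arrays, and all 10 were found among the 6256 genes printed there. Each array compared total RNA of strain BY4741 in YPD (Cy3 channel) with genomic DNA (Cy5 channel). Both samples are thus 1 group, a haploid laboratory strain in rich glucose medium, in a design that describes the RNA as mid-log. The 13 sequencing libraries of the series were not analysed here. The DNA is named as BY4741, and a strain tag calls it progenitor. HIS3, LEU2, MET17 and URA3, the genes that BY4741 lacks in whole or in part, had DNA intensities between -3.11 and 7.39 on the arrays, against medians of 4184 and 4558 over genes.

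Hsp70 proteins bind exposed hydrophobic stretches of unfolded or newly made proteins and release them in a cycle driven by ATP. J proteins deliver clients and trigger ATP hydrolysis, and nucleotide exchange factors, among them the Hsp110 proteins, reopen the chaperone. Each compartment has its own set: Ssa and Ssb in the cytosol, the latter on ribosomes, Kar2 in the lumen of the endoplasmic reticulum and Ssc1 in the mitochondrial matrix. Yeast keeps some copies on at all times and holds others in reserve, to be switched on by the heat shock factor Hsf1 and the stress factors Msn2 and Msn4. SSA1, SSA2, SSB1, SSB2, SSC1, KAR2 and SSE1 are classed here as constitutive, which does not mean that stress leaves them unchanged. SSA1 is known to be raised further by heat, and KAR2 by the unfolded protein response. SSA3, SSA4 and SSE2 are known as stress-inducible.

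Each gene had 1 probe printed as 7 spots, and all 7 spots of all 10 genes were usable on both arrays. The level of a gene is given as log2(RNA/DNA), the median over its spots of the RNA intensity set against the DNA intensity at the same spot, with the median gene of the array at 0. It is a level at 1 probe and holds no term for transcript length. The arrays lay on 1 slide, and no label says that they came from separate cultures, so p-values cover no more than the spread of these arrays, possibly a technical one. RNA intensities of the 10 genes were at least 20.1 times the floor set from the negative control spots, so none was near the limit of detection. In bulk RNA, fewer cells that express a gene and less RNA per cell cannot be told apart. SSA1 and SSA2 are near-identical copies, and so are SSB1 and SSB2. The files give no probe sequences, so signal at these probes may be shared between copies.

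The whole constitutive set of 7 genes lay far above the median gene, and the 3 stress-inducible genes lay below it. The constitutive genes ran from 2.44 for KAR2 to 3.75 for SSA2 on the log2 ratio scale, or from 5.43 to 13.5 times the median gene. The inducible genes ran from -1.40 for SSE2 to -1.01 for SSA4. In limma, 7 of 10 were called above (adjusted p under 0.05 and a log2 ratio of at least 1), where 28.2% of all 6250 genes tested were. The other 3 of 10 were called below, where 31.2% of all genes were. No member lay between SSA4 and KAR2, a gap of 3.45 on the log2 scale that held 3794 genes, or 60.7% of those tested. SSA4 and SSA3 lay close to the threshold of -1. Judged by RNA intensity alone both fell short of it, at -0.98 and -0.91, and SSA4 also did without background subtraction, at -0.97.

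**Figure D1:**
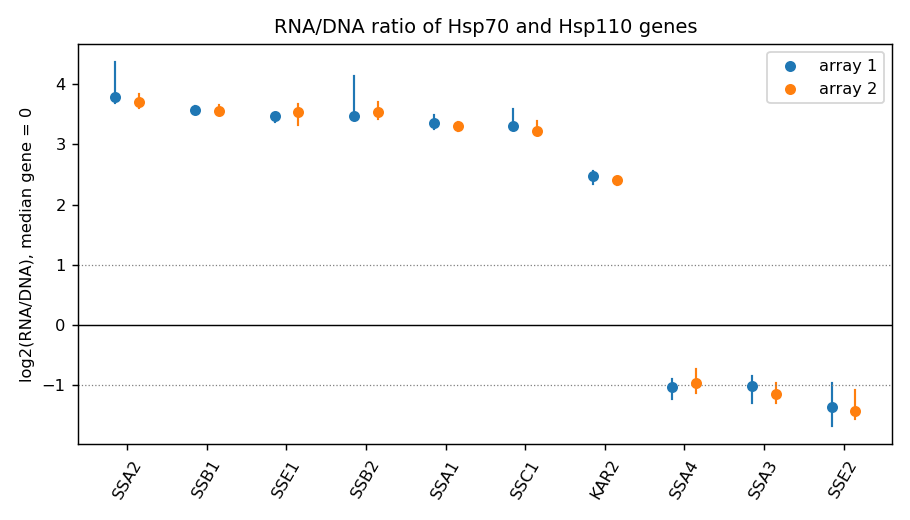
Level of each gene as log2(RNA/DNA), with the median gene at 0. Points are the medians of 7 spots on array 1 (blue) and array 2 (orange), vertical lines span the lowest to the highest spot, and dotted lines mark the threshold of 1 in each direction. The 7 constitutive genes sit between 2.41 and 3.79 and 3 between -1.44 and -0.97.

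SSA2, the constitutive cytosolic Hsp70, had the highest ratio of the family. Its RNA intensity was 68685 on array 1 and 76764 on array 2, and its DNA intensity was 16790.4 and 17333. Its log2 ratio was 3.79 and 3.71, a mean of 3.75 ± 0.06 (SD, n = 2), with 179 genes above it. Its spots on array 1 spread from 3.69 to 4.37. The DNA intensities of those spots ran from 10851.2 to 19410.5, while their RNA intensities ran from 60148 to 71505.

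SSA1, its near-identical partner, gave RNA intensities of 14668 and 18693.5, far below those of SSA2. Its DNA intensities, 5027 and 5588, were also lower. Its log2 ratio of 3.36 and 3.31, a mean of 3.33 ± 0.04 (SD, n = 2), was lower than that of SSA2 by 0.44 on array 1 and 0.40 on array 2. The difference of -0.42 (95% interval from -0.58 to -0.26) had an adjusted p of 0.00111 in limma and was 1.34-fold, short of the threshold. By RNA intensity alone SSA1 was lower by 4.39-fold, past the threshold. The log2 DNA signal of SSA1 minus that of SSA2 was -1.69, so the size of the difference in the ratio depended on the DNA channel.

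The reserve copies SSA3 and SSA4 were both low. SSA3 had RNA intensities of 609.8 and 733 and SSA4 of 549.7 and 733, against medians of 1135 and 1390 over genes. Their DNA intensities, 4155 and 5110.5 for SSA3 and 4109 and 4446 for SSA4, were near the median. SSA3 was at -1.09 ± 0.09 (SD, n = 2) and SSA4 at -1.01 ± 0.05, and the order of the genes differed between arrays. Their difference was -0.08 (95% interval from -0.26 to 0.10), with an adjusted p of 0.319 in limma. The interval spans 0, and the data do not say which of the copies was higher. In the same fit, 70.6% of all genes were called different from SSA4.

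Against SSA2, the reserve copies were lower by more than an order of magnitude. The log2 difference was -4.84 for SSA3 (95% interval from -4.99 to -4.68), or 28.6-fold, with an adjusted p of 6.15e-08 in limma. SSA4 differed by -4.76 (-4.94 to -4.58), or 27.1-fold, with an adjusted p of 7.65e-08. By RNA intensity alone these differences became 109-fold and 114-fold. Of the summed linear RNA/DNA ratio of SSA1 to SSA4, SSA2 made up 55.2% on array 1 and 54.7% on array 2. SSA1 made up 40.9% and 41.3%, SSA3 1.96% and 1.88%, and SSA4 1.94% and 2.13%. By RNA intensity alone the share of SSA2 was 81.3% and 79.2%, and that of SSA1 17.4% and 19.3%.

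**Figure D2:**
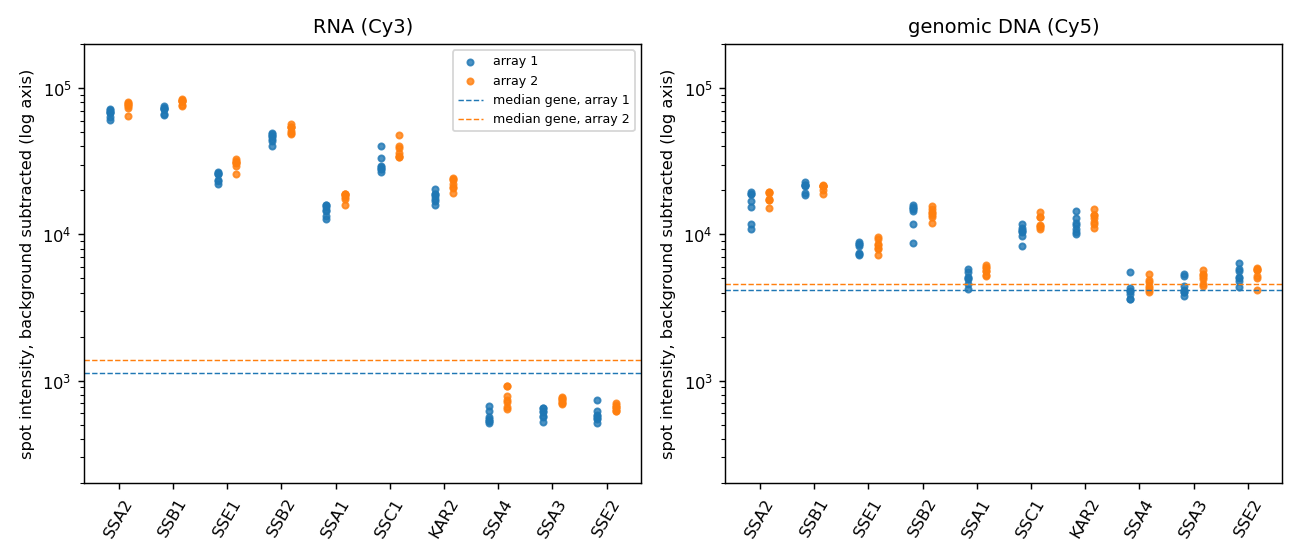
Background-subtracted intensity of every spot of the 10 genes on log axes, RNA on the left and genomic DNA on the right, for array 1 (blue) and array 2 (orange), with dashed lines at the median gene. In RNA, SSA3, SSA4 and SSE2 lie below the dashed lines and the other 7 genes far above, and in DNA the genes with much RNA also tend to lie higher, apart from SSA1.

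The ribosome-bound chaperones SSB1 and SSB2, which meet nascent chains as they leave the ribosome, were both high, within 0.22 of each other by the 95% interval. SSB1 had the highest RNA intensities of the family, 72006 and 81466, and SSB2 had 46744.5 and 53810.5. DNA intensities were 21610.4 and 21403 for SSB1 and 14886.5 and 14016 for SSB2. The log2 ratio was 3.57 ± 0.01 (SD, n = 2) for SSB1 and 3.50 ± 0.04 for SSB2. SSB1 was higher on both arrays, by 0.11 and 0.03, a mean of 0.07 (95% interval from -0.08 to 0.22) with an adjusted p of 0.272 in limma. In that fit, 94.3% of all genes were called different from SSB2. By RNA intensity alone SSB1 was higher by 0.61, still short of 1. With gradient-corrected signals SSB1 was higher by 0.177, with an adjusted p under 0.05 in limma. Whether the genes of this pair differ thus depends on the processing. SSB1 held 51.9% and 50.5% of the summed ratio of the pair.

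SSB1 lay below SSA2 by 0.18 (difference of -0.18, 95% interval from -0.34 to -0.02, adjusted p of 0.0323 in limma), and SSB2 by 0.25 (-0.25, from -0.43 to -0.08, adjusted p of 0.0151). Both differences were under the threshold. With gradient-corrected signals the limma adjusted p was 0.669 for SSB1, at -0.05, and 0.0565 for SSB2, at -0.23. With the mean over spots it was 0.133 for SSB1 and 0.112 for SSB2. By RNA intensity alone SSB1 was instead above SSA2 by 0.08, with an adjusted p of 0.574 in limma. The order of the highest genes of the family thus depends on the processing and on the DNA signal, and is not settled here.

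The Hsp110 genes split as the SSA genes did. SSE1, the main nucleotide exchange factor of cytosolic Hsp70, had RNA intensities of 25723 and 30871 and a log2 ratio of 3.51 ± 0.06 (SD, n = 2). SSE2, its stress-inducible copy, had RNA intensities of 575 and 661 and a ratio of -1.40 ± 0.05, the lowest of the family. DNA intensities were 8289 and 8456 for SSE1 and 5129 and 5672 for SSE2. SSE1 was higher by 4.83 on array 1 and 4.98 on array 2, a mean of 4.91 (95% interval from 4.73 to 5.09), or 30.0-fold, with an adjusted p of 8.97e-06 in limma. In that fit, 76.8% of all genes were called different from SSE2. SSE1 made up 96.6% and 96.9% of the summed ratio of the pair. SSE1 lay below SSA2 by 0.25 in the ratio (-0.25, 95% interval from -0.43 to -0.06, adjusted p of 0.0185), and by 2.58-fold in RNA intensity, past the threshold.

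Of the organelle genes, the mitochondrial one was higher. SSC1, which pulls preproteins into the matrix and folds them there, had RNA intensities of 29012 and 35835 and DNA intensities of 10469.6 and 11653. KAR2, which draws proteins into the endoplasmic reticulum and folds them in its lumen, had RNA intensities of 18203 and 22199.8 and DNA intensities of 11544 and 13020.1. SSC1 was at 3.26 ± 0.05 (SD, n = 2) and KAR2 at 2.44 ± 0.05. The difference was 0.82 on array 1 and 0.81 on array 2, with a 95% interval from 0.68 to 0.95, or 1.76-fold, and an adjusted p of 0.000142 in limma. It was thus larger than the spread of the arrays and under the threshold of 1, and no spot of KAR2 reached the lowest spot of SSC1. In that fit, 83.4% of all genes were called different from KAR2.

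KAR2 was the lowest constitutive gene by the ratio. It lay below SSA2 by 1.31 (-1.31, 95% interval from -1.47 to -1.15), or 2.48-fold, with an adjusted p of 5.69e-06 in limma. By RNA intensity alone SSA1 was the lowest constitutive gene, at 14668 and 18693.5 against 18203 and 22199.8 for KAR2. SSC1 lay below SSA2 by 0.49 (-0.49, from -0.65 to -0.34, adjusted p of 0.000531), and by 2.25-fold in RNA intensity, past the threshold. Of 8 members set against SSA2, 3 were called different (SSA3, SSA4 and KAR2), where 95.3% of all genes were. In all, 12 pairs were compared, each as 1 gene of a fit over the whole table. With 2 arrays, an exact test of a single difference cannot give a two-sided p below 0.5.

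**Figure D3:**
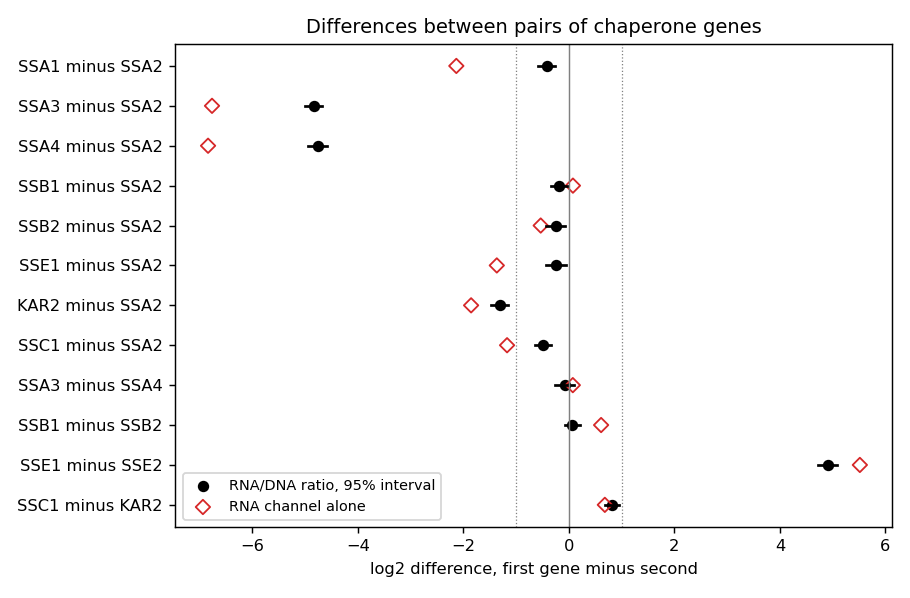
Log2 difference of each of 12 pairs, first gene minus second. Black points with lines are the RNA/DNA ratio with its 95% interval, open red diamonds are the RNA channel alone, and dotted lines mark a difference of 1. Both measures put SSA3 and SSA4 far below SSA2 and SSE1 far above SSE2, and they part most for SSA4, SSA3 and SSA1 minus SSA2, at -6.84, -6.76 and -2.13 with RNA alone against -4.76, -4.84 and -0.42 with the ratio.

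Summed over genes on the linear ratio scale, the SSA and SSB groups were about level. SSA1 to SSA4 together gave 25.1 on array 1 and 23.95 on array 2 (24.5 ± 0.810, SD, n = 2), in units of the median gene. SSB1 and SSB2 gave 23.0 and 23.3 (23.2 ± 0.214). SSE1 and SSE2 gave 11.4 and 12.05 (11.7 ± 0.441), SSC1 gave 9.83 and 9.34, and KAR2 gave 5.56 and 5.31. The SSA sum was above the SSB sum on both arrays, by less than the distance between either and the next group. This order depends on the DNA channel. By RNA intensity alone SSB1 was above SSA2, and SSB2, at 46744.5 and 53810.5, was above SSA1, at 14668 and 18693.5. The SSB genes together were thus higher in RNA. SSC1, at 29012 and 35835, was also above SSE1, at 25723 and 30871.

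**Figure D4:**
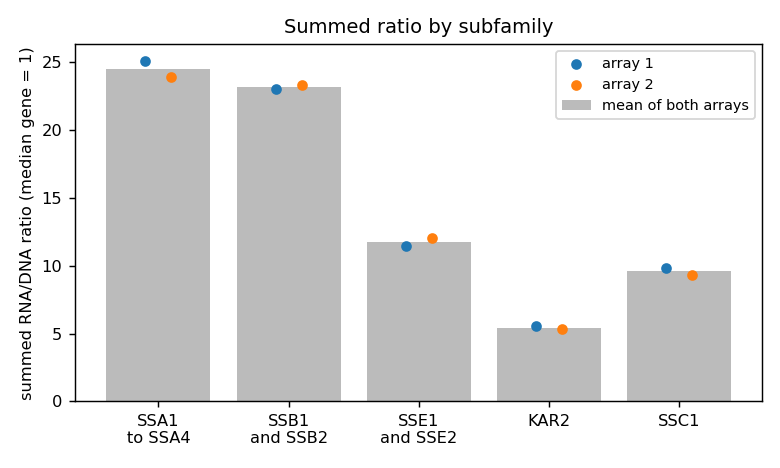
Summed linear RNA/DNA ratio of each subfamily, with the median gene at 1. Grey bars are the mean of both arrays and points are array 1 (blue) and array 2 (orange). The SSA and SSB bars stand at 24.5 and 23.2, above SSE at 11.7, SSC1 at 9.59 and KAR2 at 5.43.

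In descending order of the log2 ratio the genes stood as SSA2, SSB1, SSE1, SSB2, SSA1, SSC1, KAR2, SSA4, SSA3 and SSE2. The ranks among 6250 genes were 180, 202, 208, 211, 236, 250, 507, 4302, 4398 and 4652. The values of the arrays overlapped for 2 neighbouring pairs in this order, SSE1 with SSB2 and SSA4 with SSA3. SSB1 was above SSE1 on both arrays, but the mean difference, 0.06, was smaller than its SD, 0.07. The other neighbours also kept their order on both arrays, although the spots of SSA1 and SSC1, and of SSA3 and SSE2, overlapped on each array. Spots also overlapped on array 2 for SSA2 with SSB1 and for SSB1 with SSE1, and on array 1 for SSB2 with SSA1.

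DNA signal varied with RNA signal within the family. Relative to the median gene, the log2 DNA signal was 2.30 for SSB1, 1.97 for SSA2, 1.73 for SSB2, 1.49 for KAR2, 1.34 for SSC1 and 0.94 for SSE1. It was 0.28 for SSA1, 0.30 for SSE2, 0.08 for SSA3 and -0.03 for SSA4. Over the 10 genes, log2 DNA and log2 RNA had a Pearson r of 0.88 on array 1 and 0.86 on array 2, as a description of genes that share a slide, a scan and in part their sequence. For the 613 genes in the highest 10% of RNA on both arrays, the median log2 DNA signal was 0.95, with quartiles of 0.60 and 1.37. SSA1 lay below the lower of these quartiles, and SSB1, SSA2, SSB2 and KAR2 above the upper one. A high DNA signal lowers the ratio, and what part of the DNA signal is gene copies, probe behaviour or signal shared with a copy was not tested.

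The other Hsp70 genes, which have narrower tasks, did not share one level. SSZ1, the Hsp70 of the ribosome-associated complex, stood at 3.50 ± 0.01 (SD, n = 2), beside SSB1 and SSB2. LHS1, an Hsp70 relative that acts as exchange factor for Kar2, was at 1.01 ± 0.07 and called above. It was under the threshold on array 1, at 0.96, and over it on array 2, at 1.06. It also fell short at 0.99 without background subtraction, 0.997 with the mean over spots and 0.81 when centred on genes above the floor. SSQ1, a mitochondrial Hsp70 for iron-sulfur cluster assembly, was at 0.00 ± 0.04, and ECM10, a close relative of SSC1, at -0.56 ± 0.04. Neither was called, although ECM10 was past the threshold by RNA intensity alone, at -1.29. Thus 2 of the 4 were called above and none below, with a median of 0.50 (28.2% and 31.2% of all genes).

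The partners at the ribosome were high, with 1 exception. Of 5 genes of the nascent chain complexes, 4 were called above and 1 below (28.2% and 31.2% of all genes), with a median of 3.50. ZUO1, the J protein that pairs with Ssz1, was at 3.001 ± 0.01 (SD, n = 2), and EGD1, a subunit of the nascent polypeptide-associated complex, at 3.78 ± 0.04. BTT1, a second beta-type subunit of that complex, was at -1.04 ± 0.01, and at -0.98 without background subtraction.

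Of 12 J proteins of the cytosol, nucleus and surface of the endoplasmic reticulum, 5 were called above the median gene and none below, with a median of 0.53 (28.2% and 31.2% of all genes). Judged by RNA intensity alone, 2 of the 12 were called below. Shares of all genes are given, here and below, for the RNA/DNA ratio with the median gene at 0. They are not given for counts by RNA intensity alone or with another centring. ZUO1 was the highest of them. SIS1 and YDJ1, the general J proteins of the cytosol and nucleus, were at 2.31 ± 0.01 and 1.99 ± 0.17 (SD, n = 2), and APJ1 was lowest, at -0.72 ± 0.01, or -1.21 by RNA intensity alone. YDJ1 read 2.11 on array 1 and 1.87 on array 2, a wider spread than that of any of the 10 chaperone genes.

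Of 4 J proteins that face the lumen of the endoplasmic reticulum, 1 was called above (28.2% of all genes), SEC63, part of the translocation channel, and by RNA intensity alone 2 were. It stood at 2.50 ± 0.03, next to KAR2, and JEM1 was lowest at -0.68 ± 0.02. Of 6 mitochondrial J proteins, 1 was called above and 1 below, where 28.2% and 31.2% of all genes were. PAM18 of the import motor was the one above, at 1.97 ± 0.01, and JID1 the one below, at -2.71 ± 0.03. In RNA intensity, 2 of these 6 were called above and 2 below.

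Of 5 exchange factors, 4 were called above, where 28.2% of all genes were, with a median of 1.17. MGE1, which serves Ssc1, was at 2.87 ± 0.03 (SD, n = 2), FES1 of the cytosol at 1.65 ± 0.04 and SNL1, anchored in the endoplasmic reticulum membrane, at 1.17 ± 0.05. LHS1 is given above, and SIL1, which serves Kar2, was not called at -0.07 ± 0.0041. When centred on genes above the floor, 2 of the 5 were called, and SNL1 was at 0.98. SSE1 was thus higher than each of these 5 on both arrays. Among 4 mitochondrial partners, 3 were called above (28.2% of all genes), with MGE1 the highest. HSP78, a matrix disaggregase, was the lowest at -0.58 ± 0.01, or 0.45 by RNA intensity alone.

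Of 6 cytosolic partners, 5 were called above (28.2% of all genes), with a median of 2.31. HSC82, the constitutive Hsp90, was at 3.93 ± 0.08 (SD, n = 2), and has a near-identical copy with which its probe may share signal. HSP104, the disaggregase that works with Hsp70, was at 1.54 ± 0.08, and CNS1, an Hsp90 co-chaperone, was not called at 0.74 ± 0.02, although it reached 1.09 by RNA intensity alone. Of 7 heat-inducible markers, which include HSP104, 3 were called below (31.2% of all genes) and 1 above, with a median of -0.84. HSP30, a stress protein of the plasma membrane, was lowest at -3.88 ± 0.06.

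The regulators of these genes were spread out. HAC1, the factor of the unfolded protein response that raises KAR2, was at 3.02 ± 0.01 (SD, n = 2), and IRE1, the sensor that splices HAC1 RNA, at 0.45 ± 0.05. HAC1 RNA is made unspliced without stress, and the probe was not tested for which form it detects. HSF1 was called below at -1.18 ± 0.04, but stood at 0.19 by RNA intensity alone. Its DNA signal was 1.27 above the median gene on the log2 scale. MSN2 and MSN4 were not called, at 0.16 ± 0.02 and -0.02 ± 0.02, and by RNA intensity alone MSN4 was past the threshold at -1.83. Over all 52 partner genes and markers, 22 were called above and 6 below, with a median of 0.50, where 28.2% and 31.2% of all genes were called. The RNA channel on its own put 25 of the 52 above and 10 below, counts to which the shares for the ratio do not apply.

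**Figure D5:**
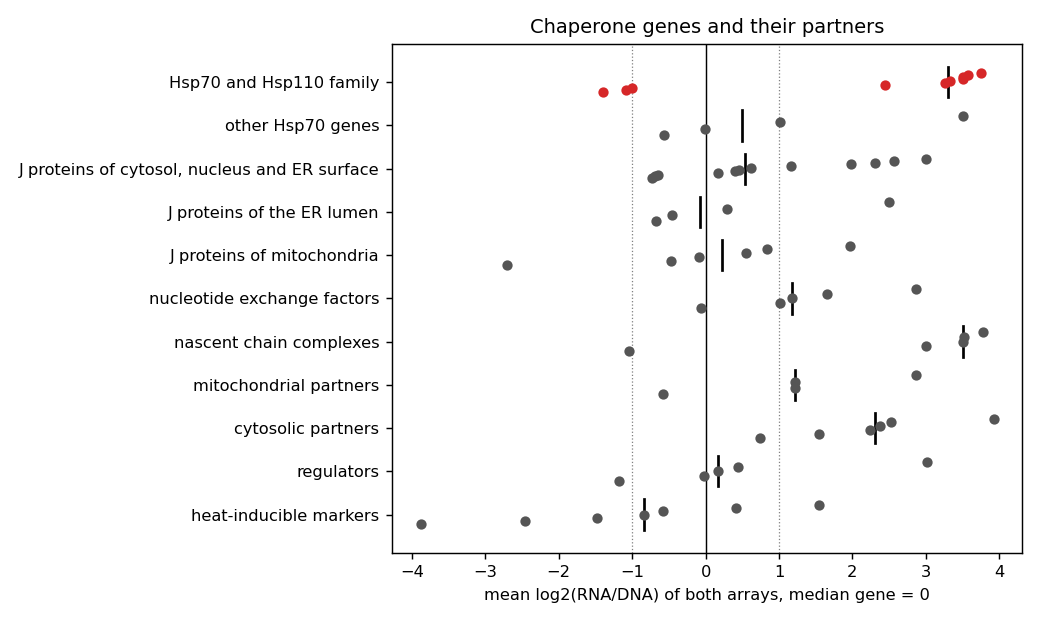
Mean log2(RNA/DNA) of both arrays for each gene, with the median gene at 0. Red points are the 10 Hsp70 and Hsp110 genes, grey points the genes of each partner list (a gene may be in more than 1 list), black bars the list medians, and dotted lines the threshold of 1. The red points fall into sets at 2.44 to 3.75 and at -1.40 to -1.01, and the partner lists fill the range from -3.88 to 3.93.

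The annotation in the array files names 59 genes as chaperones, co-chaperones or heat shock proteins by molecular function, and the 10 genes are among them. Of the other 49, 27 were called above and 7 below, with a median of 1.52, where 28.2% of all genes were called above and 31.2% below. HSC82 and EGD1 alone of the 59 had a higher ratio than SSA2. By RNA intensity alone EGD1 was lower than SSA2, at 5.37 against 5.85, so these places hold for the ratio. SSB1, SSE1, SSB2, SSA1, SSC1 and KAR2 took places 4, 6, 8, 10, 11 and 20 of 59, and SSA4, SSA3 and SSE2 places 50, 52 and 55.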

How the data were processed

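Array intensity values are those the authors deposited, with a fitted spatial background subtracted and no dye normalization on record, per the file headers. The submitters' processing notes name Agilent Feature Extraction 10.5.1.1 as the software. RNA was in the same dye on both arrays, so effects of dye and of molecule cannot be told apart.

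Usable spots had DNA signal well over background, with saturated and non-uniform spots of either channel removed from both arrays, which left 43721 of 43792 spots and 6250 genes. RNA intensity was raised to a floor of 3 SD over 153 negative control spots (17.05 and 32.9). Each gene's ratio was tested with limma 3.58.1 (R 4.3.3, intercept-only model, moderated by empirical Bayes) against the median gene and against SSA2, SSA4, SSB2, SSE2 and KAR2, with Benjamini-Hochberg adjustment over all genes. The script was tested on simulated data. Tables were made in Python 3.11.15 with numpy 2.4.6 and pandas 2.3.3, and plots with matplotlib 3.10.9. Alternatives changed the signal, floor, spot filter, centring, normalization, limma trend, threshold or array.

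Of 52 partner symbols, 41 matched the array symbols and 11 matched through RefSeq locus tags (assembly R64, strain S288C). Named are all members, the highest and lowest gene of each list, all other Hsp70 genes, exchange factors and regulators, and SIS1, YDJ1, ZUO1, SEC63 and HSP104. Members and lists were chosen with earlier results of these data known. The genome build is not given in the sources used here, and no coordinates are printed.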

Additional observations from a re-analysis of the deposited data

How the results depend on the processing

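Each pair was tested under 10 alternatives, and 108 of 120 values kept their direction and their side of the threshold. No spot filter, a robust floor, an intensity trend, the adjusted p alone and a log2 threshold of 2 left every pair difference unchanged. Direction could not change under these settings, so only the call could differ there. On single arrays, 23 of 24 pair values kept their direction, and SSA3 minus SSA4 was 0.0168 on array 1 and -0.18 on array 2. With the RNA channel alone, 1 member in place of 3 was called below the median gene. The pairs SSA1, SSE1 and SSC1 minus SSA2 passed the threshold there, at -2.13, -1.37 and -1.17, and 2 uncalled differences reversed, SSB1 minus SSA2 to 0.0769 and SSA3 minus SSA4 to 0.0749. With the adjusted p alone, 6 more pairs passed at their reported values (SSA1 at -0.42, SSB1 at -0.18, SSB2 at -0.25, SSE1 at -0.25 and SSC1 at -0.49 minus SSA2, and SSC1 minus KAR2 at 0.82). With a log2 threshold of 2, 0 members were called below, and KAR2 minus SSA2, at -1.31, fell short. For single arrays, 7 members were at or above 1, and between 2 and 3 at or below -1 (SSA4 was at -0.97 on array 2). Centring on the genes above the floor moved every ratio by -0.19. Gradient-corrected signals, the mean over spots and quantile normalization changed no call of a member or pair. Nor did no spot filter, a robust floor or an intensity trend in limma. Calls cannot register a change in adjusted p for differences under the threshold. With gradient-corrected signals and with the mean over spots, SSB1 and SSB2 minus SSA2 lost an adjusted p under 0.05. With gradient-corrected signals SSB1 minus SSB2, at 0.177, gained one. The p-values of these small differences thus depend on the processing. Among partner genes (alternatives chosen after seeing the data), the RNA channel alone reversed HSF1 to 0.19, HSP78 to 0.45, IRE1 to -0.32 and SIL1 to 0.34. MSN2 was at -0.0309 when centred on genes above the floor. MSN4 was at 0.0564 with gradient-corrected signals, 0.00646 without background subtraction and 0.0305 with the mean over spots. The cause of these changes was not tested beyond the DNA values given above. The number of arrays limits the precision. No paired analysis was possible because there is 1 group.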

Other observations

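The array also carries entries numbered next to SSA1 and SSB1 whose systematic names place them on the opposite strand, YAL004W and YDL228C, chosen after their values were seen. YAL004W is known as a doubtful reading frame that overlaps SSA1. RNA at YAL004W was 15.6 on array 1 and 15.2 on array 2, under the floors of 17.05 and 32.9, while SSA1 read 14668 and 18693.5. RNA at YDL228C was 10.4 and 10.1, also under the floors, while SSB1 read 72006 and 81466. DNA intensities were low as well, 647 and 675 at YAL004W and 392 and 461 at YDL228C, at percentiles 0.304 and 0.304, and 0.240 and 0.256, of all genes. Their ratios are upper bounds of -2.73 and -2.18.

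Of the 20 genes beside the 10 chaperone genes in the RefSeq order of the chromosomes, 19 were measured, with 6 called above and 3 below and a median of 0.47, where 28.2% of all genes were called above and 31.2% below. Beside the 7 constitutive genes, 4 of 13 measured neighbours were called above and 2 below. Beside the 3 stress-inducible genes, 2 of 6 were called above and 1 below. The 3 highest neighbours were EFB1 beside SSA1 at 5.27 ± 0.04 (SD, n = 2), RPS8B beside SSA4 at 4.73 ± 0.000545 and ILS1 beside SSA3 at 3.10 ± 0.02. The 3 called below were PAU17 beside SSA2 at -2.78 ± 0.04, RTT105 beside SSA4 at -2.16 ± 0.04, and MER1 beside SSB2 at -6.57 ± 0.57. MER1 was the lowest neighbour and had the widest spread, and whether its RNA lay above the floor is not reported here. These neighbours were named after their values were seen.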
